A study of Mus musculus with 16 samples.

Results

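Interferon response genes are the genes that cells switch on when interferons, the cytokines of antiviral defence, bind their receptors. The 39 genes described here were taken from a list of symbols, and each was read from its brightest probe set that carries a single gene symbol, by the mean over 16 arrays. Of the 39, 37 had such a probe set and 35 were expressed above the filter used for testing, which asked for log2 4 or higher in 4 arrays or more. They are 35 of the 12078 genes tested. By textbook knowledge 25 were classed as targets of type I interferon (interferon alpha and beta), 13 as targets of interferon gamma, and Irf5 as neither, although many genes answer to both kinds of interferon. Of the type I class 21 were tested, and of the interferon gamma class 13. Isg15 shared its probe set with another symbol and Ifi44 was not measured by a probe set with 1 symbol, so neither has a value here, and Mx2 and Oas3 stayed below the filter, with group means of 2.93 to 3.15 for Mx2 and 2.63 to 3.42 for Oas3.

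The arrays held RNA of white adipose tissue from mice of the strain C57BL6/J in 4 groups of 4. The groups were knockout high fat, wild-type high fat, knockout low fat and wild-type low fat, by genotype and diet. In the knockout, Sirt1, which encodes a deacetylase that uses NAD, was deleted by a Cre recombinase driven by the FABP4 promoter, aimed at adipocytes. Whether other cells of the tissue also lost Sirt1 was not measured here. The wild type had no Cre transgene, and no group had the transgene with Sirt1 intact, so that the deletion and the transgene cannot be told apart. The mice were fed for 8 weeks, starting when 4 weeks old, and were 12 weeks old at collection; which fat depot was taken is not stated. Since the labels do not name separate mice for the replicates, p-values cover only the spread among these arrays, and 4 arrays in a group limit the precision of every value.

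Type I interferons signal through the receptor chains Ifnar1 and Ifnar2 to a complex of STAT proteins with Irf9, which binds the interferon-stimulated response element (ISRE) in target promoters. Interferon gamma, made mainly by T cells and natural killer cells, signals through Ifngr1 and Ifngr2 to STAT dimers that bind the gamma-activated site (GAS). In adipose tissue, which holds adipocytes, macrophages, lymphocytes and vessels, each of these cells can answer to interferon, and the tissue is known to gather immune cells during obesity. In tissue RNA, fewer cells of a type and less RNA per cell cannot be told apart.

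Values are log2 expression, and array medians over all probe sets lay between 4.34 and 4.46. Adjusted p-values are from limma, over the 12078 genes, with a threshold of 0.05. Sirt1 averaged 8.74 ± 0.30 in knockout high fat and 8.97 ± 0.14 in wild-type high fat arrays, and 9.24 ± 0.22 in knockout low fat and 9.43 ± 0.35 in wild-type low fat arrays (SD, n = 4 each). Neither difference passed the test (adjusted p 0.448 and 0.498); where the probes lie with respect to the deletion is not stated, so this checks no label. Adipocyte markers were high, with a mean level of the 7 measured markers of 12.1 to 12.6 in every array. In 5 arrays, 1 of knockout high fat, 1 of wild-type high fat, 1 of knockout low fat and 2 of wild-type low fat, the skeletal muscle gene Tnnt3 reached 8 or more. These 5 are called the arrays with muscle transcripts, and the main counts below are also given without them. The arrays kept were not all free of muscle transcripts, with Tnnt3 at 7.95 in wild-type high fat array 4 and 7.37 in knockout low fat array 1.

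The promoters are shown because the 2 elements named above are the textbook route from each interferon to its targets. RefSeq windows on GRCm38.p6, from 250 bases before to 50 after the start, were found for 31 of the 39 genes. The ISRE core was searched as GAAA, any 2 bases and GAAA again, and the GAS core as TTCNNNGAA, on both strands. Some genes had several windows, and a gene was counted where any of its windows held the letters. ISRE letters were found for 14 of the 31 genes, 10 of 19 type I targets and 4 of 11 interferon gamma targets, against 3.99% of 27025 genes with a window. GAS letters were found for 9 of the 31, 5 of 19 type I targets and 4 of 11 interferon gamma targets, against 9.55% of those 27025 genes. Below are 120-base stretches, 5′ to 3′ on the strand of the gene, with the matched letters in capitals. Ifit1 and Ifit3 stand for genes whose diet response differed between genotypes, Gbp3 for the interferon gamma target that did so too, and Oas1a, Irf8 and Bst2 for genes with another pattern.
Ifit1 (chr19:34640734-34640853, plus strand): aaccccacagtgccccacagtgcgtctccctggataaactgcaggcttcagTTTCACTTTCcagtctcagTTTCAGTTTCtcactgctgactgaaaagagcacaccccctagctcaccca
Ifit3 (chr19:34583337-34583456, plus strand): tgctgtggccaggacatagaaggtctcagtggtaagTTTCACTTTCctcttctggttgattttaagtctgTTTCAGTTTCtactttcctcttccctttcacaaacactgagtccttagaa
Gbp3 (chr3:142559924-142560043, plus strand): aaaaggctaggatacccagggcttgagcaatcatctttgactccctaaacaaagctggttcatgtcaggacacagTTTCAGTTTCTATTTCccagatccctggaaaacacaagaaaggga
Oas1a (chr5:120907526-120907645, minus strand): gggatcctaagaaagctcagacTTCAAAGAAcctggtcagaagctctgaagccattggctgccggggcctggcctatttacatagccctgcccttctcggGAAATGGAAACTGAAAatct
Irf8 (chr8:120736134-120736253, plus strand): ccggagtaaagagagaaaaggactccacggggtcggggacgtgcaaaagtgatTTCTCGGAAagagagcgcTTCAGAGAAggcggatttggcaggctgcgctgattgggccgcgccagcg
Bst2 (chr8:71537547-71537666, minus strand): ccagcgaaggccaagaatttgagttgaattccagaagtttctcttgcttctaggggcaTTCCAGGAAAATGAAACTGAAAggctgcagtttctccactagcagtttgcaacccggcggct
Ifit1 and Ifit3 each show a pair of ISRE cores on the opposite strand, Gbp3 shows overlapping ISRE cores, and Irf8 shows GAS cores alone. In Oas1a a GAS core stands upstream of overlapping ISRE cores. Bst2 was the only one of the 31 whose ISRE and GAS letters overlap. Ddx58 and Ifih1 had ISRE letters after the start, Ifit2 only GAS letters, and Xaf1, Oasl1 and Ubd neither. These matches describe letters in a window and are no evidence of binding.

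Fat of wild-type mice fed low fat had the lowest group mean of most type I targets. With the high fat diet 5 of the 35 genes rose and 4 fell in knockout, against 15.6% and 13.5% of all genes tested, and 17 rose and 1 fell in wild type, against 20.5% and 15.2%. Over the 21 type I targets tested the highest group mean was in knockout high fat for 4, wild-type high fat for 10, knockout low fat for 6 and wild-type low fat for 1. Over the 13 interferon gamma targets the counts in the same groups were 3, 5, 3 and 2. Among all 12078 genes those groups held the highest mean for 32.3%, 17.8%, 18.3% and 31.7%. The plot of centred values shows the block of low values in wild-type low fat arrays at the right, and Oas1a, Oasl1, Irf8 and Ubd as rows that are highest in knockout high fat arrays at the left. Dhx58, Irf9 and Psmb8 also had their highest group mean there, by smaller margins.

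**Figure D1:**
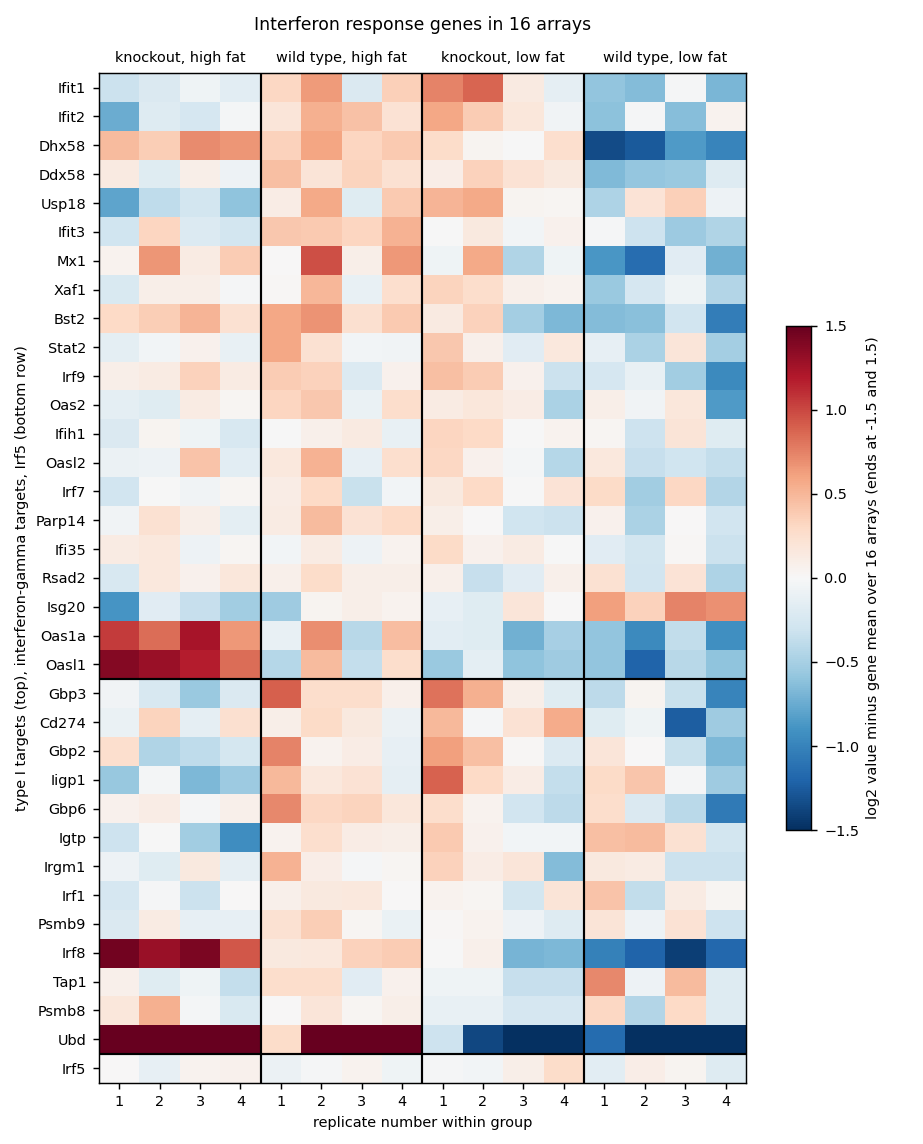
Each row is a gene and each column an array, grouped as knockout high fat, wild-type high fat, knockout low fat and wild-type low fat, with 4 replicates each; colour is the log2 value minus the gene's mean over 16 arrays, with ends at -1.5 and 1.5. Type I targets are at the top, interferon gamma targets below them and Irf5 in the last row; Oas1a, Oasl1, Irf8 and Ubd have their highest group mean in knockout high fat arrays, as do Dhx58, Irf9 and Psmb8 by smaller margins.

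The high fat diet was compared with the low fat diet in knockout mice. Of the 35 genes 5 rose and 4 fell, against 15.6% and 13.5% of all genes tested, so that the shares of 14.3% and 11.4% were near the background. Oas1a, Oasl1, Dhx58, Irf8 and Ubd rose. Ifit2 fell by 0.57 (SE 0.19, adjusted p = 0.0352), Usp18, a protease that removes the ubiquitin-like Isg15 and dampens type I receptor signalling, fell by 0.80 (SE 0.20, adjusted p = 0.00763), and the immunity-related GTPases Igtp and Iigp1 fell by 0.53 and 0.69 (adjusted p 0.046 and 0.0479). The median change was -0.06, against -0.02 over all genes tested. High fat arrays lay wholly above low fat arrays for 5 genes and wholly below for 1, against 17.6% and 15.5% of all genes.

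Of the calls in knockout mice, Oas1a, Oasl1, Irf8 and Ubd passed under every alternative. Any one of knockout low fat arrays 1, 2 and 3 and knockout high fat arrays 1 and 3, left out, ended the call of Ifit2 (adjusted p 0.0573 to 0.123), and knockout low fat arrays 2 and 3 and knockout high fat arrays 3 and 4 each ended that of Dhx58 (adjusted p 0.0661 to 0.0772). The calls of Igtp and Iigp1 ended in 16 and 14 of 28 alternatives. Leaving out any one of knockout low fat arrays 1, 2 and 3, knockout high fat arrays 1, 3 and 4, wild-type low fat array 3 and wild-type high fat arrays 2 and 3 ended both, and knockout low fat array 4 and wild-type high fat arrays 1 and 4 that of Igtp alone, with adjusted p between 0.0515 and 0.161; the wild-type arrays enter through the shared estimate of spread. Without knockout low fat array 3 or knockout high fat array 3 the count of calls was 5. Without the 5 arrays with muscle transcripts Oas1a, Oasl1, Bst2, Irf8 and Ubd passed, all higher, and no gene passed as lower.

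The same diets were compared in wild-type mice, on arrays that the knockout comparison did not use. Of the 35 genes 17 rose, 1 fell and 17 did not pass the test; of all genes tested 20.5% rose and 15.2% fell, 35.6% in all. The 17 that rose are 48.6% of the 35. The median log2 change was 0.41, against 0.04 over all genes tested. Type I targets accounted for 12 of the 17 that rose: the cytosolic RNA sensors Ddx58 and Dhx58, the RNA-binding Ifit1, Ifit2 and Ifit3, the antiviral effectors Mx1, Oas1a, Oasl1 and Bst2, the transcription factor Irf9, and Xaf1 and Parp14. Of the interferon gamma targets Irf8, Gbp3, Gbp6, Cd274 and Ubd rose. The single gene that fell was Isg20, an exonuclease that degrades RNA, by 0.69 on the log2 scale (SE 0.17, adjusted p = 0.00502). In 10 of the 35 genes every high fat array lay above every low fat array, and in 1 below, against 17.7% and 13.1% of all genes. Of 11 less bright probe sets of 10 genes, 6 differed in their call from the brightest one in this comparison, those of Gbp2, Gbp6, Ifi35, Irf5, Parp14 and Stat2.

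Of these 18 calls, Ifit3, Mx1, Oas1a, Ddx58, Dhx58, Bst2, Irf8 and Ubd passed under every alternative run. Leaving out wild-type high fat array 2 left 11 calls and ended those of Ifit1, Ifit2, Irf9, Oasl1, Xaf1, Parp14 and Cd274, with adjusted p between 0.0508 and 0.0921. Other single arrays ended calls as well: wild-type high fat array 1 those of Irf9, Gbp3, Gbp6 and Cd274, array 3 that of Cd274 and array 4 that of Oasl1, with adjusted p between 0.0511 and 0.0725. Among wild-type low fat arrays, leaving out array 1 ended the call of Ifit2, array 2 those of Oasl1 and Parp14, array 3 those of Ifit2, Irf9 and Cd274, and array 4 those of Irf9, Parp14, Gbp3 and Cd274, with adjusted p between 0.0502 and 0.115. Without the 5 arrays with muscle transcripts 11 genes passed, all higher: Ifit1, Ifit3, Mx1, Oas1a, Oasl1, Ddx58, Dhx58, Bst2, Xaf1, Irf8 and Ubd.

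Setting the diet changes side by side, 14 of the 35 genes had a positive change in knockout mice, 40% against 48.3% of all genes tested, and 32 in wild-type mice, 91.4% against 53.2%. Both were positive for 13 genes, 1 was positive in knockout and negative in wild type, 19 the other way round, and 2 were negative in both. These signs are those of the brightest probe sets. Of 11 less bright probe sets of 10 genes, 5 had the same sign as the brightest one in knockout and 11 in wild type. The change in wild type was larger for 28 of the 35, that is 18 of 21 type I targets and 9 of 13 interferon gamma targets, with Irf5 as the remaining gene. The change in knockout was larger for 7 of the 35, 20% against 48.8% of all genes tested. Oas1a, Oasl1, Irf8 and Ubd were among the genes with the larger change in knockout mice.

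**Figure D2:**
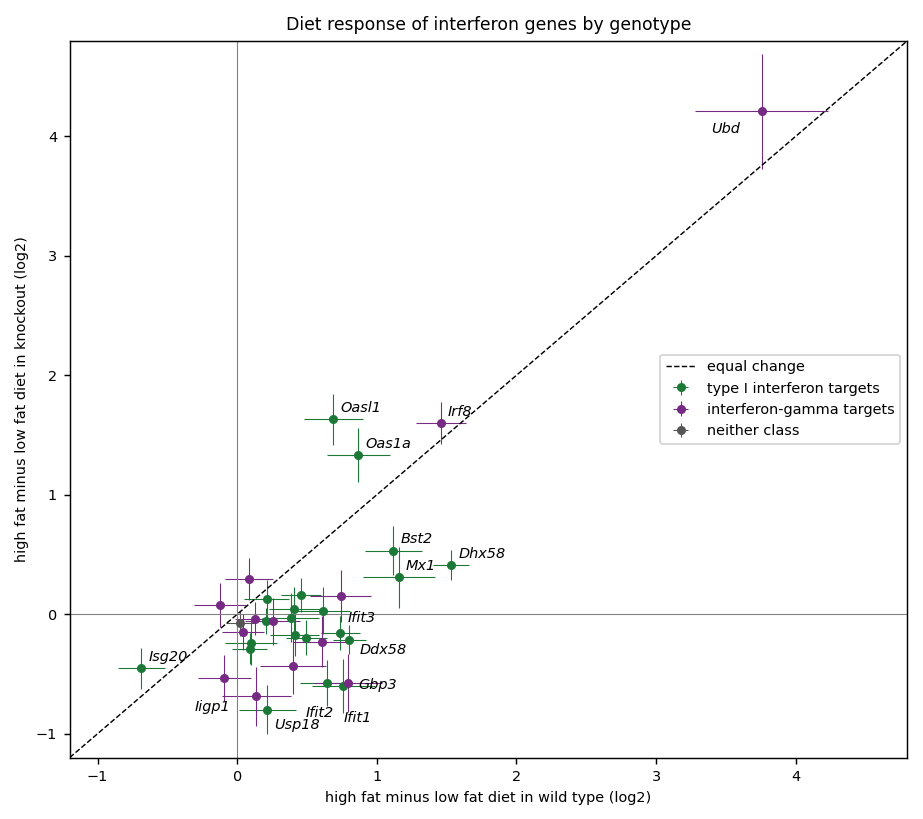
Each point is a gene, with its high fat minus low fat change (log2) in knockout mice on the vertical axis and in wild-type mice on the horizontal axis; bars are standard errors and the dashed line marks equal change. Of the 35 genes 28 lie below the line, and Oasl1, Oas1a, Irf8 and Ubd lie above it.

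Knockout mice were compared with wild-type mice on the high fat diet. Of the 35 genes 3 rose and 3 fell, 8.57% in each direction against 8.58% and 6.47% of all genes tested (15.1% in all), which is near the background. Oas1a, Oasl1 and Irf8 rose, while Ifit2, Ifit3 and Usp18 fell. The median change was -0.22, against 0.00 over all genes tested, and 9 of the 35 changes were positive. Every knockout array lay below every wild-type array for 8 genes, Ifit2, Ifit3, Ddx58, Usp18, Irf1, Gbp3, Gbp6 and Igtp, and above for Oasl1, Irf8 and Ubd, against 11.5% and 14.6% of all genes.

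Irf8 and Oasl1 passed under every alternative on the high fat diet. Without knockout high fat array 1 the count was 2 and without array 3 it was 3, with the calls of Ifit2, Ifit3 and Oas1a ended in both cases and that of Usp18 in the first (adjusted p 0.0562 to 0.122). Leaving out wild-type high fat array 1 ended the call of Oas1a, array 2 those of Ifit2 and Usp18, array 3 those of Ifit2 and Oas1a, array 4 those of Ifit3 and Usp18, and knockout high fat array 4 those of Ifit3 and Usp18, with adjusted p between 0.0546 and 0.0978. Without the 5 arrays with muscle transcripts Oasl1, Usp18 and Irf8 passed.

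Knockout mice were then compared with wild-type mice on the low fat diet. Both genotype comparisons use arrays that the diet comparisons also use, so that no likeness between them is drawn. Of the 35 genes 8 rose and 1 fell, 22.9% against 11.7% of all genes tested for those that rose and 2.86% against 7.24% for the one that fell. Ifit1, Irf9, Ddx58, Dhx58 and Xaf1 rose among type I targets, Irf8, Gbp3 and Cd274 among interferon gamma targets, and Isg20 fell by 0.63 (SE 0.17, adjusted p = 0.0171). The median change was 0.28, against 0.04 over all genes tested. Every knockout array lay above every wild-type array for 5 genes, Ddx58, Dhx58, Xaf1, Irf8 and Cd274, and below for Isg20, against 11.8% and 6.02% of all genes.

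Ddx58 and Dhx58 passed under every alternative on the low fat diet. Without knockout low fat array 1 the count was 4 and without array 2 it was 5: array 1 ended the calls of Isg20, Irf9, Xaf1, Gbp3 and Cd274 (adjusted p 0.0511 to 0.151), and array 2 those of Isg20, Irf9, Xaf1 and Gbp3 (adjusted p 0.0552 to 0.121). The calls of Irf9 and Gbp3 ended in 16 and 17 of 28 alternatives, among them leaving out knockout low fat array 3 (adjusted p 0.0661 and 0.052), wild-type low fat array 1, 3 or 4, or knockout high fat array 2, 3 or 4. Wild-type low fat arrays 4 and 1 each ended that of Xaf1 (adjusted p 0.0555 and 0.0767), wild-type high fat array 4 that of Irf9 (0.0503), and wild-type high fat arrays 2 and 3 that of Gbp3 (0.0539 and 0.0554). Without the 5 arrays with muscle transcripts Ifit1, Ddx58 and Dhx58 passed, and Irf8 did not (0.65, adjusted p = 0.091).

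Whether the diet changed a gene differently in the genotypes was tested as the interaction, the diet change in knockout minus that in wild type. Of the 35 genes 8 had a lower diet change in knockout and 1 a higher one, 22.9% against 7.87% and 2.86% against 5.12% of all genes tested. Ifit1, Ifit2, Ifit3, Ddx58, Dhx58, Usp18 and Xaf1 were the type I targets that passed as lower, Gbp3 the interferon gamma target, and Oasl1 passed as higher. The median was -0.41, against -0.01 over all genes tested. All 4 groups enter this contrast, so it holds the same arrays as the pairwise comparisons. Markers of mesothelial cells, endothelial cells and T, natural killer and innate lymphoid cells had median interactions of the same sign (-1.57, -0.65 and -0.81). So did dendritic cell markers (-0.55), B cell and neutrophil markers (-0.35) and the pan-leukocyte gene Ptprc (-0.30). Macrophage, adipocyte and skeletal muscle markers had positive ones (0.16, 0.05 and 0.0065). The part of these markers in these results was not tested.

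**Figure D3:**
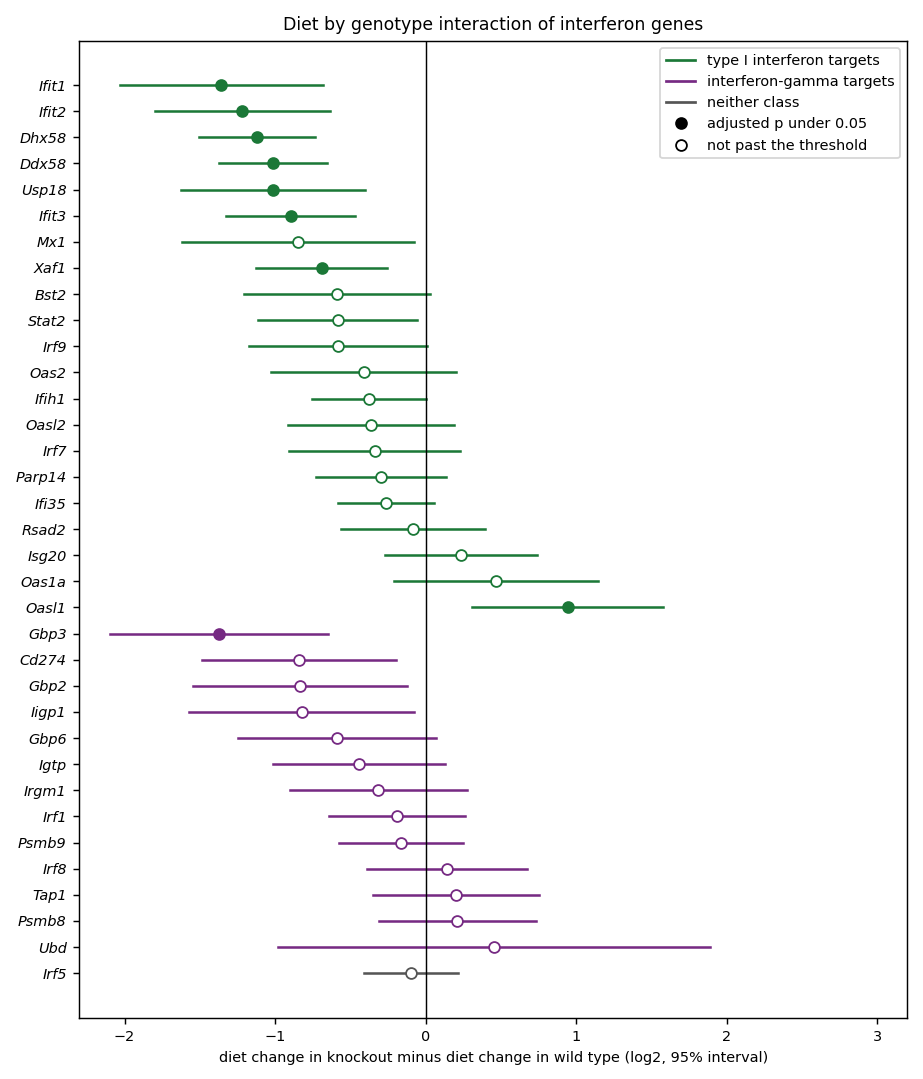
For each of the 35 genes, the point is the diet change in knockout minus the diet change in wild type (log2) and the line its 95% interval; filled points passed an adjusted p of 0.05. Filled points left of 0 are Ifit1, Ifit2, Dhx58, Ddx58, Usp18, Ifit3, Xaf1 and Gbp3, and Oasl1 is the filled point right of 0.

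Of the 3 RNA sensors, Dhx58 and Ddx58 had a lower diet change in knockout. Dhx58 encodes LGP2, a regulator of the RIG-I-like sensors of viral RNA, and its values were 7.68, 7.58, 7.92 and 7.87 in knockout high fat arrays, 7.55, 7.80, 7.53 and 7.60 in wild-type high fat arrays, 7.49, 7.25, 7.20 and 7.46 in knockout low fat arrays, and 5.86, 5.94, 6.35 and 6.21 in wild-type low fat arrays. The wild-type low fat arrays stood below all 12 others. With the high fat diet it was 1.33-fold higher in knockout (log2 0.41 ± 0.13 SE, adjusted p = 0.0242) and 2.89-fold higher in wild type (log2 1.53 ± 0.13 SE, adjusted p = 8.07e-07). On the low fat diet it was 2.39-fold higher in knockout than in wild type (log2 1.26 ± 0.13 SE, adjusted p = 1.06e-05), and the interaction was -1.12 ± 0.18 (SE, adjusted p = 0.00123), a call that ended where the probe sets of each gene were averaged (adjusted p = 0.0613).

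Ddx58 encodes RIG-I, the sensor of viral RNA ends. Its values were 7.21, 6.91, 7.17 and 7.00 in knockout high fat arrays, 7.54, 7.28, 7.42 and 7.31 in wild-type high fat arrays, 7.19, 7.43, 7.30 and 7.23 in knockout low fat arrays, and 6.42, 6.50, 6.53 and 6.89 in wild-type low fat arrays. Again the wild-type low fat arrays were the lowest, with no overlap with the other 3 groups. The diet change was -0.21 ± 0.12 in knockout (adjusted p = 0.197) and 0.80 ± 0.12 in wild type (SE, adjusted p = 0.000109), with an interaction of -1.01 ± 0.17 (SE, adjusted p = 0.00144), which passed under every alternative. A further Ddx58 probe set gave an interaction of -1.32 (adjusted p over probe sets 0.0251), while its change in knockout on the low fat diet, 0.59, did not pass (adjusted p over probe sets 0.113). The third sensor, Ifih1, which encodes MDA5, had group means between 8.41 and 8.70 and passed in no comparison.

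The Ifit proteins bind viral RNA and block its translation, and all 3 Ifit genes had a lower diet change in knockout mice. Ifit1 had 7.55, 7.66, 7.81 and 7.71 in knockout high fat arrays, 8.19, 8.52, 7.66 and 8.24 in wild-type high fat arrays, 8.62, 8.75, 8.01 and 7.74 in knockout low fat arrays, and 7.28, 7.22, 7.86 and 7.20 in wild-type low fat arrays. Apart from array 3, the wild-type low fat arrays lay below every array of the other groups. The diet change of Ifit1 was -0.60 ± 0.23 in knockout (adjusted p = 0.0566) and 0.76 ± 0.23 in wild type (SE, adjusted p = 0.0155), and the interaction was -1.36 ± 0.32 (SE, adjusted p = 0.0118). On the low fat diet Ifit1 was 1.85-fold higher in knockout than in wild type (adjusted p = 0.0121).

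Ifit2 had 8.13, 8.69, 8.62 and 8.84 in knockout high fat arrays, 9.06, 9.41, 9.32 and 9.10 in wild-type high fat arrays, 9.45, 9.26, 9.05 and 8.82 in knockout low fat arrays, and 8.27, 8.86, 8.24 and 8.93 in wild-type low fat arrays. On the high fat diet the knockout arrays lay below all wild-type arrays. Its diet change was -0.57 in knockout and 0.64 ± 0.19 in wild type (SE, adjusted p = 0.0166), and the interaction was -1.22 ± 0.27 (SE, adjusted p = 0.00913). On the low fat diet the difference of 0.57 ± 0.19 between knockout and wild type just missed the threshold (adjusted p = 0.0502).

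Ifit3 had 8.71, 9.34, 8.81 and 8.74 in knockout high fat arrays, 9.42, 9.41, 9.34 and 9.54 in wild-type high fat arrays, 9.02, 9.16, 8.97 and 9.09 in knockout low fat arrays, and 9.003, 8.71, 8.48 and 8.56 in wild-type low fat arrays. Knockout high fat array 2 stood apart from the other 3 arrays of its group. The diet change was -0.16 ± 0.14 in knockout (adjusted p = 0.441) and 0.74 ± 0.14 in wild type (SE, adjusted p = 0.000877). On the high fat diet Ifit3 was lower in knockout than in wild type by -0.53 ± 0.14 (SE, adjusted p = 0.0207), and the interaction was -0.90 ± 0.20 (SE, adjusted p = 0.00913). When the 5 arrays with muscle transcripts were left out, the interactions of Ifit2 (-1.25) and Ifit3 (-0.67) did not pass (adjusted p 0.0696 and 0.189), while that of Ifit1 did (-1.51, adjusted p = 0.0241).

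Usp18 and Xaf1 also had a lower diet change in knockout. Usp18 had 6.63, 7.04, 7.15 and 6.82 in knockout high fat arrays, 7.53, 7.99, 7.24 and 7.82 in wild-type high fat arrays, 7.94, 7.99, 7.46 and 7.45 in knockout low fat arrays, and 6.96, 7.62, 7.78 and 7.35 in wild-type low fat arrays. Knockout high fat arrays were the lowest group, with all 4 below the wild-type high fat and the knockout low fat arrays. On the high fat diet Usp18 was lower in knockout than in wild type by -0.73 ± 0.20 (SE, adjusted p = 0.0234). Its interaction was -1.01 ± 0.29 (SE, adjusted p = 0.0302), a call that ended in 9 of 27 alternatives, among them leaving out any one of wild-type low fat array 1, knockout low fat arrays 1 and 2, wild-type high fat arrays 2 and 4 and knockout high fat arrays 1 and 4 (adjusted p 0.0532 to 0.066).

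Xaf1, a partner of the apoptosis inhibitor XIAP, had 9.52, 9.84, 9.84 and 9.73 in knockout high fat arrays, 9.77, 10.25, 9.64 and 10.00 in wild-type high fat arrays, 10.08, 10.01, 9.82 and 9.80 in knockout low fat arrays, and 9.19, 9.50, 9.68 and 9.31 in wild-type low fat arrays. Wild-type low fat arrays were the lowest group and overlapped with both high fat groups. The interaction of -0.69 ± 0.21 (SE, adjusted p = 0.0371) ended as a call in 12 of 27 alternatives, among them leaving out any one of wild-type low fat arrays 1 and 4, knockout low fat arrays 1 and 2, wild-type high fat arrays 2 and 4 and knockout high fat arrays 1 and 4 (adjusted p 0.06 to 0.0791).

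Mx1 and Bst2 were higher on the high fat diet in wild type, and their interaction did not pass. Mx1, a dynamin-like GTPase that blocks influenza viruses, had 6.48, 7.09, 6.55 and 6.82 in knockout high fat arrays, 6.44, 7.40, 6.52 and 7.08 in wild-type high fat arrays, 6.37, 7.00, 5.98 and 6.36 in knockout low fat arrays, and 5.55, 5.29, 6.26 and 5.71 in wild-type low fat arrays. Both high fat groups lay above all wild-type low fat arrays. With high fat feeding its change in knockout was 0.31 ± 0.26 (SE, adjusted p = 0.4), and in wild type it was 2.23-fold higher (log2 1.16 ± 0.26 SE, adjusted p = 0.00252). The interaction was -0.85 ± 0.36 (SE, adjusted p = 0.133).

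Bst2, also called tetherin, holds budding viruses at the cell surface. Its values were 10.33, 10.40, 10.54 and 10.26 in knockout high fat arrays, 10.61, 10.71, 10.27 and 10.42 in wild-type high fat arrays, 10.16, 10.37, 9.52 and 9.36 in knockout low fat arrays, and 9.38, 9.40, 9.75 and 8.996 in wild-type low fat arrays. The knockout low fat arrays fell into a higher and a lower pair. The diet change was 0.53 ± 0.21 in knockout (adjusted p = 0.0637) and 1.12 ± 0.21 in wild type (SE, adjusted p = 0.000616), and the interaction was -0.59 ± 0.29 (SE, adjusted p = 0.194).

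Oas1a and Oasl1 had their highest group mean in knockout mice on the high fat diet. Oas1a encodes an oligoadenylate synthetase, which activates the RNA-degrading enzyme RNase L. It had 8.92, 8.71, 9.11 and 8.52 in knockout high fat arrays, 7.76, 8.57, 7.45 and 8.33 in wild-type high fat arrays, 7.72, 7.69, 7.15 and 7.37 in knockout low fat arrays, and 7.28, 6.92, 7.50 and 6.95 in wild-type low fat arrays. Only wild-type high fat array 2 reached the range of the knockout high fat arrays. The diet change was 1.33 ± 0.23 in knockout (adjusted p = 0.000388) and 0.87 ± 0.23 in wild type (SE, adjusted p = 0.00732), and the interaction of 0.47 ± 0.32 did not pass (adjusted p = 0.347).

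Oasl1 encodes a relative without synthetase activity, known in mouse to repress translation of Irf7. Its values were 5.83, 5.75, 5.63 and 5.29 in knockout high fat arrays, 4.02, 4.92, 4.10 and 4.71 in wild-type high fat arrays, 3.89, 4.31, 3.85 and 3.92 in knockout low fat arrays, and 3.86, 3.25, 4.04 and 3.85 in wild-type low fat arrays. Knockout high fat arrays lay above all 12 others. Oasl1 was 3.10-fold higher with the high fat diet in knockout (log2 1.63 ± 0.21 SE, adjusted p = 3.73e-05), and 2.28-fold higher in knockout than in wild type on that diet (log2 1.19 ± 0.21 SE, adjusted p = 0.00169). In both low fat groups most values lay under 4, and with values under 4 set to 4 the diet change was 1.55 in knockout and 0.43 in wild type, the second no longer past the threshold (adjusted p = 0.0736). The interaction of 0.94 ± 0.30 (SE, adjusted p = 0.0491) lost its call in 16 of 26 alternatives, among them leaving out any one of wild-type low fat arrays 1, 3 and 4, knockout low fat arrays 1, 3 and 4, wild-type high fat arrays 1 and 3 and knockout high fat arrays 1, 2 and 3 (adjusted p 0.064 to 0.104).

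**Figure D4:**
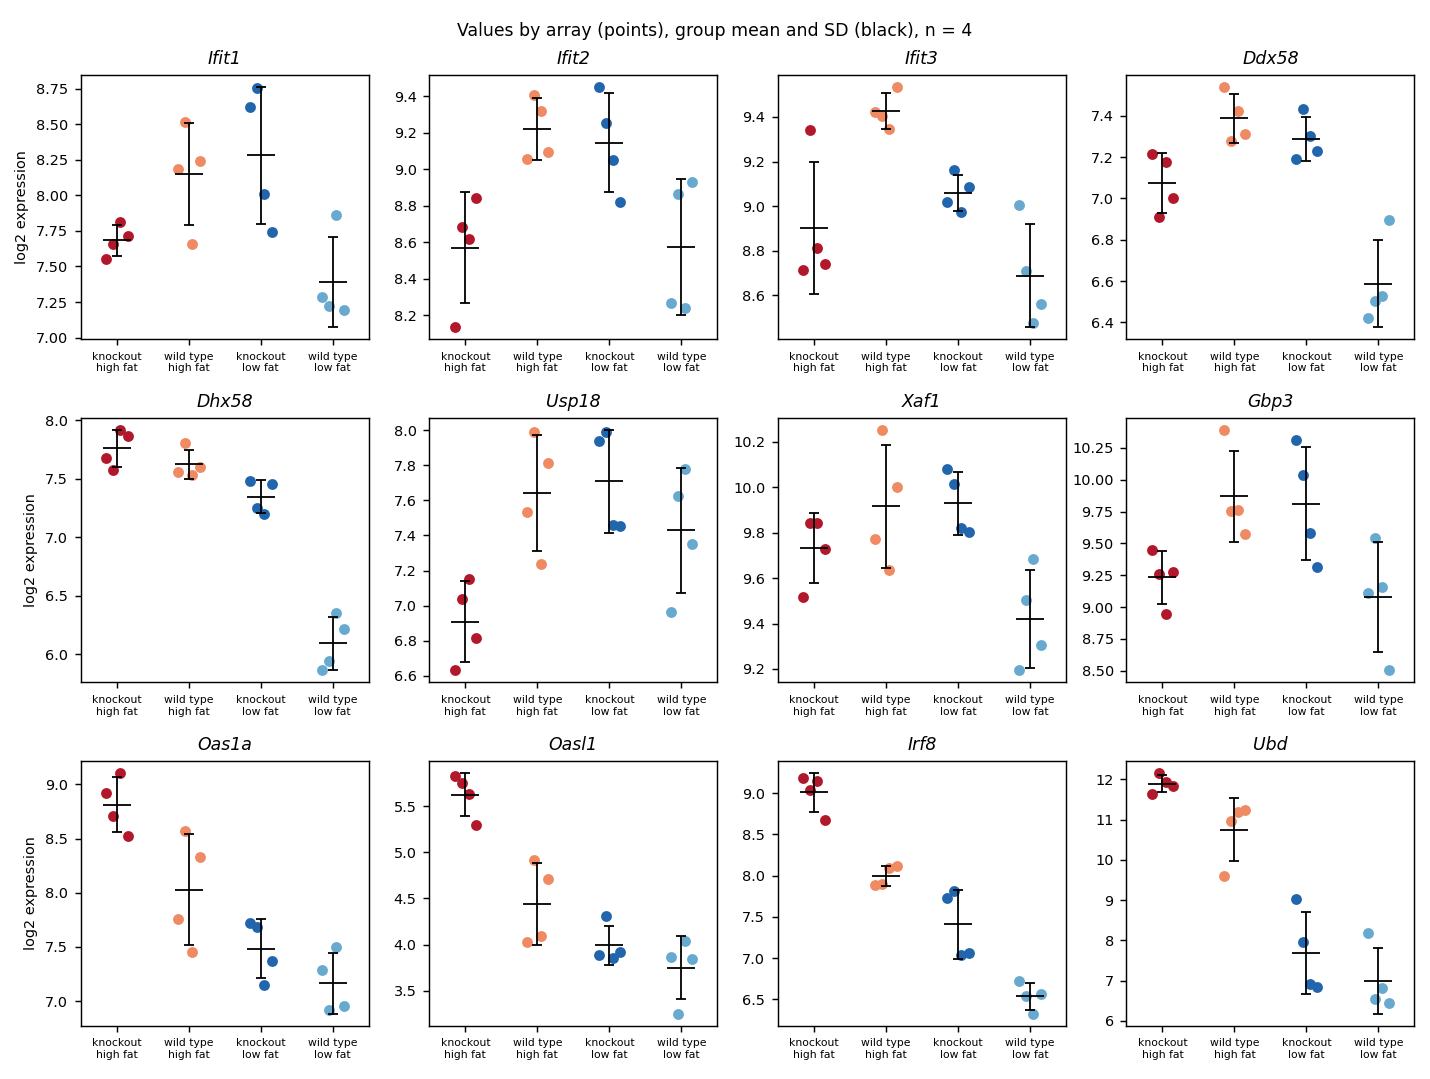
Each panel is a gene with its log2 expression by array (points), the group mean and SD (black, n = 4), for knockout high fat, wild-type high fat, knockout low fat and wild-type low fat from left to right; axes do not start at 0. Ifit1, Ifit2, Ifit3, Ddx58 and Gbp3 have lower means in knockout high fat than in wild-type high fat, while Oas1a, Oasl1, Irf8 and Ubd step down from left to right.

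Among the other type I targets only Irf9, Parp14 and Isg20 passed in any comparison. Irf9 and Stat2 carry the type I signal to the ISRE. Irf9 averaged 8.74 ± 0.12 in knockout high fat, 8.72 ± 0.27 in wild-type high fat, 8.72 ± 0.35 in knockout low fat and 8.11 ± 0.37 in wild-type low fat (SD, n = 4 each), so that wild-type low fat stood below 3 groups of like mean. Stat2 ranged between group means of 5.42 and 5.83 and passed in no comparison, although its other probe set, with a mean of 4.13, was higher with high fat feeding in wild type (0.62, adjusted p over probe sets 0.0069). Irf7, a transcription factor that amplifies the response, had group means of 6.71 to 6.96 and passed in no comparison. Parp14, an ADP-ribosyltransferase, was higher on the high fat diet in wild type by 0.45 ± 0.14 (SE, adjusted p = 0.0219), but its other probe set gave 0.06 (adjusted p over probe sets 0.711). Rsad2, which encodes the antiviral enzyme viperin, Oas2, Oasl2 and Ifi35 passed in no comparison. The dimmest of the 3 Ifi35 probe sets, with a mean of 6.55, did pass for diet in wild type (0.59, adjusted p over probe sets 0.00848) and for knockout on the low fat diet (0.48, adjusted p over probe sets 0.043).

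Isg20 was the single type I target with its highest group mean in wild-type low fat. It had 7.27, 7.98, 7.80 and 7.62 in knockout high fat arrays, 7.61, 8.20, 8.24 and 8.20 in wild-type high fat arrays, 8.03, 7.97, 8.34 and 8.16 in knockout low fat arrays, and 8.77, 8.50, 8.90 and 8.84 in wild-type low fat arrays. All 4 wild-type low fat arrays lay above the 12 others. Its diet change was -0.45 ± 0.17 in knockout (SE, adjusted p = 0.0542), and the interaction was 0.23 ± 0.24 (SE, adjusted p = 0.545).

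Among interferon gamma targets, the transcription factor Irf8 and the ubiquitin-like modifier Ubd showed the largest changes with diet. Irf8, which directs the development of macrophages and dendritic cells, had 9.18, 9.04, 9.15 and 8.67 in knockout high fat arrays, 7.89, 7.89, 8.09 and 8.12 in wild-type high fat arrays, 7.73, 7.81, 7.04 and 7.06 in knockout low fat arrays, and 6.72, 6.54, 6.33 and 6.57 in wild-type low fat arrays. No array of any group overlapped with another group. The diet change was 1.60 ± 0.18 in knockout (adjusted p = 1.07e-05) and 1.46 ± 0.18 in wild type (SE, adjusted p = 1.9e-05). Knockout exceeded wild type by 1.01 ± 0.18 on the high fat diet (adjusted p = 0.00147) and by 0.87 ± 0.18 on the low fat diet (SE, adjusted p = 0.00313), and the interaction was 0.14 ± 0.25 (SE, adjusted p = 0.742). A less bright Irf8 probe set did not pass for knockout on the low fat diet (0.49, adjusted p over probe sets 0.136).

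Ubd encodes FAT10, which marks proteins for degradation and is induced by interferon gamma together with tumour necrosis factor. It had 11.63, 12.16, 11.94 and 11.84 in knockout high fat arrays, 9.60, 10.96, 11.19 and 11.25 in wild-type high fat arrays, 9.02, 7.97, 6.91 and 6.85 in knockout low fat arrays, and 8.18, 6.54, 6.82 and 6.44 in wild-type low fat arrays. High and low fat arrays did not overlap in either genotype, and Ubd was 18.5-fold higher with the high fat diet in knockout (log2 4.21 ± 0.48 SE, adjusted p = 1.29e-05) and 13.5-fold higher in wild type (log2 3.76 ± 0.48 SE, adjusted p = 2.97e-05). On the high fat diet all knockout arrays lay above all wild-type arrays, and the difference of 1.15 ± 0.48 did not pass (SE, adjusted p = 0.119). Its interaction was 0.45 ± 0.68 (SE, adjusted p = 0.69).

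The guanylate-binding proteins and the immunity-related GTPases attack membranes around intracellular microbes. Gbp3 had 9.45, 9.26, 8.95 and 9.28 in knockout high fat arrays, 10.39, 9.76, 9.76 and 9.57 in wild-type high fat arrays, 10.31, 10.04, 9.59 and 9.32 in knockout low fat arrays, and 9.11, 9.54, 9.16 and 8.50 in wild-type low fat arrays. On the high fat diet the knockout arrays lay below all wild-type arrays. Its diet change was -0.58 ± 0.24 in knockout (adjusted p = 0.0842) and 0.79 ± 0.24 in wild type (SE, adjusted p = 0.0179). The interaction of Gbp3 was -1.37 ± 0.34 (SE, adjusted p = 0.0161), and without the 5 muscle-bearing arrays it was -1.10 and did not pass (adjusted p = 0.183).

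Gbp2 and Gbp6 had interactions of the same sign that did not pass, at -0.84 ± 0.34 (SE, adjusted p = 0.11) and -0.59 ± 0.31 (SE, adjusted p = 0.222). A less bright Gbp2 probe set, however, averaged 9.47 ± 0.12 in knockout high fat, 10.20 ± 0.09 in wild-type high fat, 10.01 ± 0.21 in knockout low fat and 9.75 ± 0.25 in wild-type low fat (SD, n = 4 each), and its interaction was -0.99 ± 0.19 (SE, adjusted p over probe sets 0.00452). It also passed for diet in knockout (-0.54) and in wild type (0.45) and for knockout on the high fat diet (-0.74), with adjusted p over probe sets of 0.00779, 0.0177 and 0.00213. For Gbp6 the change with diet in wild type was 0.74 ± 0.22 (SE) by the brightest probe set and 0.22 by the other (adjusted p over probe sets 0.542), and the call ended where probe sets were averaged (adjusted p = 0.112). Igtp and Iigp1 averaged 8.62 ± 0.39 and 8.98 ± 0.29 in knockout high fat and 9.19 ± 0.09 and 9.61 ± 0.26 in wild-type high fat, against 9.16 ± 0.20 and 9.67 ± 0.51 in knockout low fat and 9.28 ± 0.35 and 9.48 ± 0.42 in wild-type low fat (SD, n = 4 each). Knockout high fat was the lowest group for both. The other Iigp1 probe set did not pass for diet in knockout (-0.41, adjusted p over probe sets 0.31) and passed for knockout on the high fat diet (-0.89, adjusted p over probe sets 0.049). Irgm1 had group means of 8.37 to 8.62 and passed in no comparison.

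Cd274 encodes PD-L1, the ligand that restrains T cells. It had 8.50, 8.94, 8.47 and 8.84 in knockout high fat arrays, 8.70, 8.89, 8.75 and 8.52 in wild-type high fat arrays, 9.10, 8.59, 8.82 and 9.17 in knockout low fat arrays, and 8.43, 8.54, 7.37 and 8.07 in wild-type low fat arrays. The spread in wild-type low fat was wide, with array 3 at the low end. It was 1.76-fold higher in knockout than in wild type on the low fat diet (log2 0.81 ± 0.21 SE, adjusted p = 0.0153), and the interaction was -0.84 ± 0.30 (SE, adjusted p = 0.0785).

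Genes of antigen processing passed in no comparison. Psmb8 and Psmb9, subunits of the immunoproteasome, had group means of 8.51 to 8.81 and 9.01 to 9.23, and the peptide transporter Tap1 had 7.54 to 7.98. Irf1, an early transcription factor of the interferon gamma response, passed in none either, with group means of 8.66 to 8.91. Wild-type low fat arrays 1 and 3 were above arrays 2 and 4 in Tap1 (8.47 and 8.23 against 7.67 and 7.55) and in Psmb8 (9.004 and 8.99 against 8.25 and 8.50). Irf5, a transcription factor of inflammatory macrophages, gave different answers by probe set: the brightest had group means of 9.81 to 9.94 and passed nowhere, whereas the other averaged 7.87 in knockout high fat, 6.76 in wild-type high fat, 6.27 in knockout low fat and 6.03 in wild-type low fat. With that probe set Irf5 was higher with the high fat diet in knockout by 1.60 and in wild type by 0.73 (adjusted p over probe sets 6.24e-05 and 0.0167), and higher in knockout than in wild type on the high fat diet by 1.11 (adjusted p over probe sets 0.0036).

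Set side by side, both classes had negative median interactions. For type I targets the median was -0.58 with 7 of 21 lower (33.3%), and for interferon gamma targets -0.31 with 1 of 13 lower (7.69%), against -0.01 and 7.87% over all genes tested. The median diet change in knockout was -0.06 in both classes, and in wild type it was 0.49 for type I and 0.25 for interferon gamma targets. In knockout compared with wild type the median change on the high fat diet was -0.17 for type I and -0.24 for interferon gamma targets, and on the low fat diet 0.32 and 0.19. Single arrays moved several of these medians. The last value was -0.02 without knockout low fat array 1, 0.36 without knockout low fat array 4, 0.31 without wild-type low fat array 2 and 0.02 without wild-type low fat array 4, and -0.14 without the 5 muscle-bearing arrays. On the high fat diet the type I median was -0.11 without knockout high fat array 1, -0.07 without wild-type high fat array 2 and -0.27 without wild-type high fat array 3. For diet in wild type the interferon gamma median was 0.13 without wild-type high fat array 1 and also without the 5 muscle-bearing arrays. The interferon gamma interaction median was -0.20 without knockout low fat array 1 or wild-type high fat array 1, -0.49 without knockout low fat array 4 and -0.10 without the 5 muscle-bearing arrays. For diet in knockout the medians stayed near 0, with 1 array left out, at -0.15 to -0.0014 for type I and -0.11 to -0.02 for interferon gamma targets. The difference between the classes was not tested.

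Other genes of the pathway were counted against the shares of all genes tested. With the high fat diet 15.6% of all genes rose and 13.5% fell in knockout, and 20.5% rose and 15.2% fell in wild type. In knockout compared with wild type 8.58% rose and 6.47% fell on the high fat diet, and 11.7% rose and 7.24% fell on the low fat diet, and in the interaction 5.12% were higher and 7.87% lower. Interferon transcripts were below the filter. Ifng averaged 2.63 in knockout high fat, 2.73 in wild-type high fat, 2.83 in knockout low fat and 2.51 in wild-type low fat, and Ifnb1, Ifna2 and Ifna4 had group means of 1.33 to 2.27. Of 20 listed ligands, receptors and signalling genes 12 were tested; 4 rose with the high fat diet in knockout, and 4 rose and 1 fell in wild type. Knockout exceeded wild type for 3 on the high fat diet and 2 on the low fat diet, and none passed the interaction at an adjusted p of 0.05. The receptor chains were among those that rose with diet: Ifnar1 by 0.81 in knockout and 0.41 in wild type (adjusted p 8.94e-05 and 0.0116), Ifnar2 by 0.52 and 0.54 (adjusted p 0.00811 and 0.00527) and Ifngr2 by 0.97 and 0.84 (adjusted p 0.00053 and 0.00131). Ifngr1 had group means of 9.51 to 9.77.

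Of 14 tested genes for sensing nucleic acids upstream of interferon, 6 rose with the high fat diet in each genotype and none fell. Of all genes tested 15.6% rose and 13.5% fell in knockout, and 20.5% rose and 15.2% fell in wild type. Zbp1, a sensor of unusual nucleic acid forms, rose by 0.60 in knockout and 1.24 in wild type (adjusted p 0.0375 and 0.000249). Tlr3, the endosomal receptor for double-stranded RNA, rose by 0.73 in wild type (adjusted p = 0.000313) and had an interaction of -0.69 (adjusted p = 0.0185). Ikbke, a kinase that activates interferon regulatory factors, had an interaction of 1.22 (adjusted p = 0.0412).

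Further targets outside the 39 genes were counted in the same way. Of 29 other type I targets tested, 2 rose and 2 fell with the high fat diet in knockout, and 10 rose and none fell in wild type, against 15.6% and 13.5% of all genes in knockout and 20.5% and 15.2% in wild type, so that the share that rose in knockout lay below the background; 1 rose and 1 fell in knockout compared with wild type on the high fat diet, and 8 rose on the low fat diet. In the interaction 4 were lower, Lgals9 (-1.25), Cmpk2 (-1.08), Phf11d (-0.77) and Samd9l (-0.60), with adjusted p of 0.0162, 0.0423, 0.049 and 0.0307, and the list's median was -0.36. Of 21 other interferon gamma targets, 4 rose and 6 fell with the high fat diet in knockout, and 3 rose and 1 fell in wild type. In the interaction 5 were lower: the chemokines Cxcl9 (-1.24) and Cxcl10 (-1.27), the tryptophan-degrading enzyme Ido1 (-1.24), Gbp7 (-0.95) and Tapbpl (-0.67), with adjusted p of 0.0207, 0.0482, 0.0212, 0.00609 and 0.0419. The antibody receptor Fcgr1 was higher (1.56, adjusted p = 0.0276), and the list's median was -0.09.

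Markers of immune cells moved with several of these results. All 10 macrophage markers were above the filter, and their mean level ranged from 10.7 to 10.9 in knockout high fat, 9.59 to 10.4 in wild-type high fat, 9.38 to 9.71 in knockout low fat and 8.83 to 8.99 in wild-type low fat. Irf8, Ubd, Oas1a, Oasl1, Dhx58 and Irf9 had the same order of group means, though the 3 highest of Irf9 lay at 8.72 to 8.74. Ptprc, B cell and neutrophil markers, and the lists of nucleic acid sensing and of ligands, receptors and signalling genes also had this order. How many of all genes had it was not counted. Of the 10 macrophage markers, 7 rose with the high fat diet in each genotype, against 15.6% of all genes in knockout and 20.5% in wild type. In knockout compared with wild type 5 rose on the high fat diet and 3 on the low fat diet, against 8.58% and 11.7% of all genes. The mean level of 13 markers of T cells, natural killer cells and innate lymphoid cells ranged from 5.05 to 5.29 in knockout high fat, 5.18 to 5.39 in wild-type high fat, 4.57 to 5.55 in knockout low fat and 4.02 to 4.96 in wild-type low fat. Of the 10 tested, 1 rose with the high fat diet in knockout and 3 in wild type. In knockout compared with wild type, 1 of them rose on the high fat diet and 3 on the low fat diet. Gzma and Thy1 had lower interactions (-1.91 and -0.98, adjusted p 0.0316 and 0.0265), with a list median of -0.81. Ncr1, Gzmb and Eomes stayed below the filter.

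Dendritic cell markers averaged 4.79 to 5.02 in knockout high fat, 4.94 to 5.17 in wild-type high fat, 4.65 to 5.03 in knockout low fat and 4.43 to 4.87 in wild-type low fat over 7 genes. In knockout none of the 5 tested rose with the high fat diet and 2 fell, against 15.6% and 13.5% of all genes. In wild type 3 rose, against 20.5%. In knockout compared with wild type none passed on the high fat diet. On the low fat diet 2 rose, against 11.7% of all genes. Xcr1 and Ccr9 were below the filter. The pan-leukocyte gene Ptprc averaged 10.80 ± 0.29 in knockout high fat, 10.33 ± 0.14 in wild-type high fat, 10.20 ± 0.53 in knockout low fat and 9.43 ± 0.36 in wild-type low fat (SD, n = 4 each). It was higher with high fat feeding in wild type by 0.90 (adjusted p = 0.00703). On the low fat diet it was higher in knockout than in wild type by 0.77, also past the threshold. Its diet change in knockout (0.60) and its genotype difference on the high fat diet (0.47) did not pass. Of 5 B cell and neutrophil markers tested, 2 rose with the high fat diet in knockout and 3 in wild type, against 15.6% and 20.5% of all genes. All 6 mesothelial markers fell with the high fat diet in knockout (median -1.55), against 13.5% of all genes. None passed in wild type (median 0.02, 1 at an unadjusted p under 0.05 by limma). All 6 were also lower in knockout than in wild type on the high fat diet (median -1.49), against 6.47% of all genes. In the interaction 2 were lower, against 7.87%, with a median of -1.57. Their mean level ranged from 6.96 to 8.11 in knockout high fat, 8.55 to 9.60 in wild-type high fat, 8.85 to 9.23 in knockout low fat and 8.09 to 9.42 in wild-type low fat. Of 6 endothelial markers 2 fell with the high fat diet in knockout, against 13.5% of all genes, and 1 rose in wild type, against 20.5% (medians -0.27 and 0.20). On the high fat diet 4 were lower in knockout than in wild type (median -0.60), against 6.47% of all genes. None of the 6 passed the interaction by limma, 4 had an unadjusted p under 0.05, and the median was -0.65. The part of these cell markers in the interferon gene results was not tested.

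**Figure D5:**
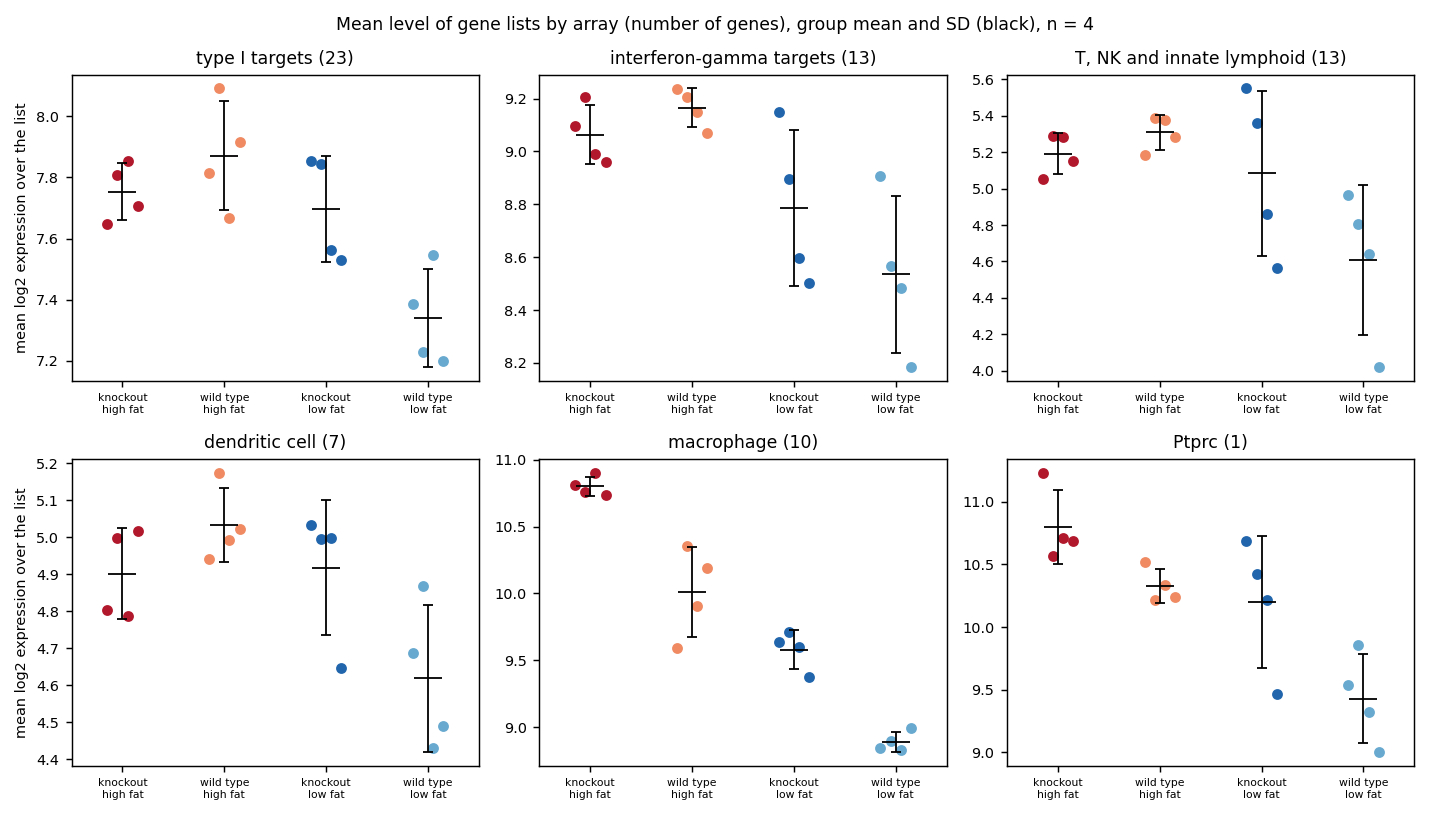
Each panel gives the mean log2 expression over a gene list by array (points), with the group mean and SD (black, n = 4), for knockout high fat, wild-type high fat, knockout low fat and wild-type low fat from left to right; axes do not start at 0. Wild-type low fat has the lowest group mean in all 6 panels, and macrophage markers are the highest in the knockout high fat arrays, at 10.7 to 10.9.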

How the data were processed

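RNA of white adipose tissue was labelled (5 ug a sample) and hybridised to 16 Affymetrix arrays, 1 a sample. The deposited values are log2 expression, for which the submitters' processing notes name GCRMA (version 2.20.0) and R (version 2.11.1). Of 45037 probe sets 34945 carry 1 gene symbol in the platform annotation, 932 several and 9160 none; a gene was read from its brightest probe set with 1 symbol, by the mean over all arrays, which gave 18193 genes. A gene was tested where 4 arrays or more reached log2 4 (12078 genes), which left out 6115. With limma 3.58.1 in R 4.3.3 the 4 group means were fitted over all 16 arrays, with 12 residual and 3.84 prior degrees of freedom, and 5 contrasts were drawn, each adjusted by Benjamini-Hochberg over the genes tested at a threshold of 0.05. Errors of changes are limma's standard errors, with 95% intervals. The procedure was tested on simulated data.

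The members, classes and other gene lists were chosen with earlier results of these data known, as was the leaving out of arrays with Tnnt3 at 8 or more, so no test over the members was made. Named are all 39 members, Sirt1, and of the other lists up to 5 genes a comparison with the smallest adjusted p past the threshold; Ifng, Ifnb1, Ifnar1, Ifnar2, Ifngr1, Ifngr2 and Ptprc are named wherever measured. Outside this rule, Tnnt3, Ifna2, Ifna4, Ncr1, Gzmb, Eomes, Xcr1 and Ccr9 were named after their values were seen. No 2 arrays held identical values, and arrays of a group correlated at 0.987 to 0.996. Over all genes tested, same-numbered arrays of different groups did not deviate together (24 pairs, correlation -0.321 to 0.199, 5 over 0.1). Replicate numbers were therefore not taken as pairs. Interferon gamma targets, though, had their lowest mean level in array 4 of every group. It was 8.96 in knockout high fat, 9.07 in wild-type high fat, 8.50 in knockout low fat and 8.19 in wild-type low fat. Type I targets had it in array 4 of the low fat groups only. Alternatives changed the filter, floor, scaling, samples fitted, variance model, weights, probe set rule, replicate block, threshold and arrays. No batch is given in the sources used here.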

Additional observations from a re-analysis of the deposited data

Results flagged for a closer look

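The diet change differed between knockout and wild type by the test of the difference itself for 9 of the 35 genes, against 13.0% of all genes tested. It was lower in knockout for Ddx58 (-1.01), Dhx58 (-1.12), Gbp3 (-1.37), Ifit1 (-1.36), Ifit2 (-1.22), Ifit3 (-0.90), Usp18 (-1.01) and Xaf1 (-0.69), and higher for Oasl1 (0.94), all on the log2 scale. These calls were not equally stable: those of Oasl1, Xaf1 and Usp18 ended in 16 of 26, 12 of 27 and 9 of 27 alternatives, that of Gbp3 in 2 of 27, those of Dhx58, Ifit1, Ifit2 and Ifit3 in 1 of 27 each, and that of Ddx58 in none of 27.

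Single arrays stood far from the other 3 of their group in 9 of 140 groups of values examined, where chance alone flags about 1 in 20 groups, or 7. In knockout high fat arrays these were Ifit3 in array 2 (9.34, others up to 8.81), Irf9 in array 3 (8.92, others up to 8.70) and Oasl2 in array 3 (8.96, others up to 8.46). In wild-type high fat arrays they were Isg20 in array 1 (7.61, others from 8.20) and Rsad2 in array 2 (10.22, others up to 10.04). In knockout low fat arrays they were Oas2 in array 4 (5.65, others from 6.24) and Oasl1 in array 2 (4.31, others up to 3.92). In wild-type low fat arrays they were Ifit1 in array 3 (7.86, others up to 7.28) and Oasl2 in array 1 (8.69, others up to 8.24).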

How the results depend on the processing

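The counts of genes past the threshold were 9 for diet in knockout, 18 for diet in wild type, 6 for knockout on the high fat diet, 9 for knockout on the low fat diet and 9 for the interaction. In that order, an adjusted p of 0.01 gave 5, 9, 2, 3 and 4, and leaving out the 5 arrays with muscle transcripts gave 5, 11, 3, 3 and 3. Array weights gave 15 for diet in knockout and 11 for knockout on the high fat diet, averaged probe sets gave 10 for the last, and fitting only the arrays compared gave 5 for knockout on the low fat diet. Leaving out 1 array at a time gave 5 to 10, 11 to 18, 2 to 7, 4 to 12 and 6 to 10. The median change of interferon gamma targets in knockout on the low fat diet was 0.19, 0.52 with array weights, -0.14 without the 5 arrays with muscle transcripts and -0.02 to 0.36 with 1 array left out. The diet change of Irf5 in knockout turned from -0.08 to 0.76 (adjusted p = 0.000278) where its 2 probe sets, which differ, were averaged; it was the single change of direction past the threshold. Causes of the other shifts were not tested. With the replicate number as a block the counts were 13, 19, 8, 10 and 9. The calls of Oas1a in knockout on the high fat diet (adjusted p = 0.0507) and Oasl1 in the interaction (adjusted p = 0.0801) ended. What the replicate number stands for is not stated. Of the calls, 4 of 9, 8 of 18, 2 of 6, 2 of 9 and 1 of 9 passed under every alternative, the last being the interaction of Ddx58. With 4 arrays a group, changes near the threshold are not settled.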
